A study of Mus musculus with 12 samples.

Results

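Nuclear receptors are transcription factors that bind DNA at short response elements, and many of them switch activity when a small lipid-soluble molecule such as a steroid, retinoid, bile acid or drug binds them. The genes described here are a list of nuclear receptors together with Ppargc1b, a coactivator of the PGC-1 family that docks onto several of them. They were chosen by name, by matching each listed symbol to the gene column of the authors' deposited table. All 29 listed genes matched among its 27109 loci, and the 25 with 1 FPKM or more in at least 1 group are described. FPKM counts sequenced fragments relative to transcript length and library size, so it can be compared between genes. The 4 others stayed under that level in every group. The closest below it was Nr4a3, with a highest value of 0.783 FPKM, and the lowest highest value among the described genes was 2.84 FPKM, shared by Nr6a1 and Ppargc1b. The list does not rest on a measured link between its members. It was drawn up with earlier results of these data known, so it is not independent of the values below.

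The study sequenced poly(A) RNA of whole livers from C57BL/6 mice in 4 groups of 3 libraries. Mice labelled LsATF4-KO (read here as a liver-specific knockout of Atf4, and called knockout) were given 1 mg/kg tunicamycin or 0.3% DMSO, the solvent. Wild-type mice received the same agents, and all livers were taken 6 h after the intraperitoneal injection. Tunicamycin blocks N-linked glycosylation and so causes endoplasmic reticulum (ER) stress, during which cells make the transcription factor ATF4. The sources used here do not name the driver of the deletion, the deleted exons, or the age and sex of the mice. The labels do not say whether the 3 libraries of a group come from separate animals. The deposited table holds 1 pooled FPKM per group, so the authors' p-values and q-values carry the only record of the spread between libraries.

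In liver many receptors act in pairs with a retinoid X receptor (RXR), the shared partner of the thyroid hormone, retinoic acid, peroxisome proliferator-activated (PPAR), vitamin D, pregnane X (PXR) and constitutive androstane (CAR) receptors. CAR and PXR sense drugs and other foreign compounds and induce enzymes that clear them. Steroid receptors such as the glucocorticoid receptor bind DNA as dimers of themselves, and the NR4A receptors are immediate early genes that bind no known natural hormone and are controlled mainly by how much is made.

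Several facts of the libraries bear on the values below. The locus that holds Atf4, merged in the assembly with Cacna1i, read 114 FPKM in knockout livers with tunicamycin, 22.8 FPKM in knockout livers with DMSO, 356 FPKM in wild-type livers with tunicamycin and 46.9 FPKM in wild-type livers with DMSO in the authors' deposited table. Knockout against wild type was lower with tunicamycin (log2 fold change -1.64, q = 0.000396) and not called with DMSO (-1.04, q = 0.270), and the locus rose with tunicamycin in knockout livers as well (2.32, q = 0.000396), in the authors' deposited table. How far the deletion went cannot be read from a merged locus in whole liver. Per the labels, lane 5 held the 3 libraries of knockout livers with DMSO and lane 4 all others. An effect of lane and one of group cannot be told apart wherever knockout livers with DMSO are compared. The knockout tunicamycin group stands apart. Its 12 adrenal markers summed to 1368 FPKM, against 6.79 FPKM in the knockout DMSO group, 23.6 FPKM in the wild-type tunicamycin group and 9.30 FPKM in the wild-type DMSO group, and all 12 reached 1 FPKM in that group, against 2 or 3 in the others. Its 12 skeletal muscle markers summed to 428 FPKM, against 1.79 to 6.30 FPKM elsewhere, and all 12 reached 1 FPKM, against 1 or 2 elsewhere. Its 10 fat markers summed to 293 FPKM, against 27.8 to 39.0 FPKM elsewhere, with 9 at 1 FPKM or more, against 3 or 4. Of 10 hepatocyte markers, 9 were abundant in every group, the lowest value being that of Ass1 in knockout livers with tunicamycin (323 FPKM), while albumin (Alb) is listed at 0 in all 4 groups. Their sum was lower with tunicamycin in both genotypes, at 12039.5 FPKM in knockout livers with tunicamycin, against 18870.9 FPKM with DMSO, and at 14879.8 FPKM in wild-type livers with tunicamycin, against 22726.6 FPKM with DMSO. Macrophage markers summed to 348 to 422 FPKM and stellate cell and fibroblast markers to 174 to 192 FPKM in the 4 groups. An exact 0 in this table is therefore given only as listed.

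With tunicamycin, more of the receptor genes fell than rose in both genotypes. A gene is called where the authors' deposited q is under 0.05, and verbs such as rose and fell are used of called genes alone. In knockout livers 5 of the 25 genes rose and 10 fell with tunicamycin over DMSO. Over all 15534 tested loci, 18.1% were called higher and 14.8% lower in that comparison. In wild-type livers 4 of the 25 rose and 12 fell. Over all 14998 tested loci, 18.1% were called higher and 19% lower there. The share of the receptor genes that fell was above that of all loci in both genotypes, in a list chosen with earlier results of these data known. The shares that rose are not compared. Nr4a1 and Nr4a2 reached 1 FPKM only with tunicamycin and count among the risers, and no such floor was set for all loci. Ppargc1b reached 1 FPKM only with DMSO and counts among the genes that fell, so the comparison of falls carries a like limit. With no floor on the listed genes, 10 of 27 tested fell and 5 rose in knockout livers. In wild-type livers 12 of 25 tested fell and 4 rose without the floor. The median log2 fold change of the described genes was -0.54 in knockout and -0.69 in wild-type livers, beside 0.03 and -0.01 over all tested loci with 1 FPKM or more. Of the 25, 7 fell in both genotypes (Nr1i3, Nr2f2, Nr3c2, Rxra, Thrb, Esr1 and Ppargc1b) and 3 rose in both (Nr4a2, Rxrb and Rora). The matching shares of all loci were not counted, so this overlap is not shown to be particular to receptors. No gene was called in opposite directions. The called hepatocyte markers moved in the same direction, with 0 higher and 4 lower of 9 tested in knockout livers (median log2 fold change -0.82) and 0 higher and 3 lower in wild-type livers (median -0.66). Ttr, Hpd and Serpina1c, which encode secreted or metabolic liver proteins, fell in both genotypes. Tat, on the same list, had positive log2 fold changes and was not called. They were 0.58 in knockout livers (q = 0.238) and 0.87 in wild-type livers (q = 0.0688) in the authors' deposited table. The endothelial markers differed in direction by genotype, with 0 higher and 5 lower of 11 in knockout livers (median -0.50) and 4 higher and 0 lower in wild-type livers (median 0.52). The part of these shifts in the receptor values was not tested, and the fall of the receptors is not shown to be particular to them. Because these are whole livers, fewer cells of a type and less RNA per cell cannot be told apart for any of these values.

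**Figure D1:**
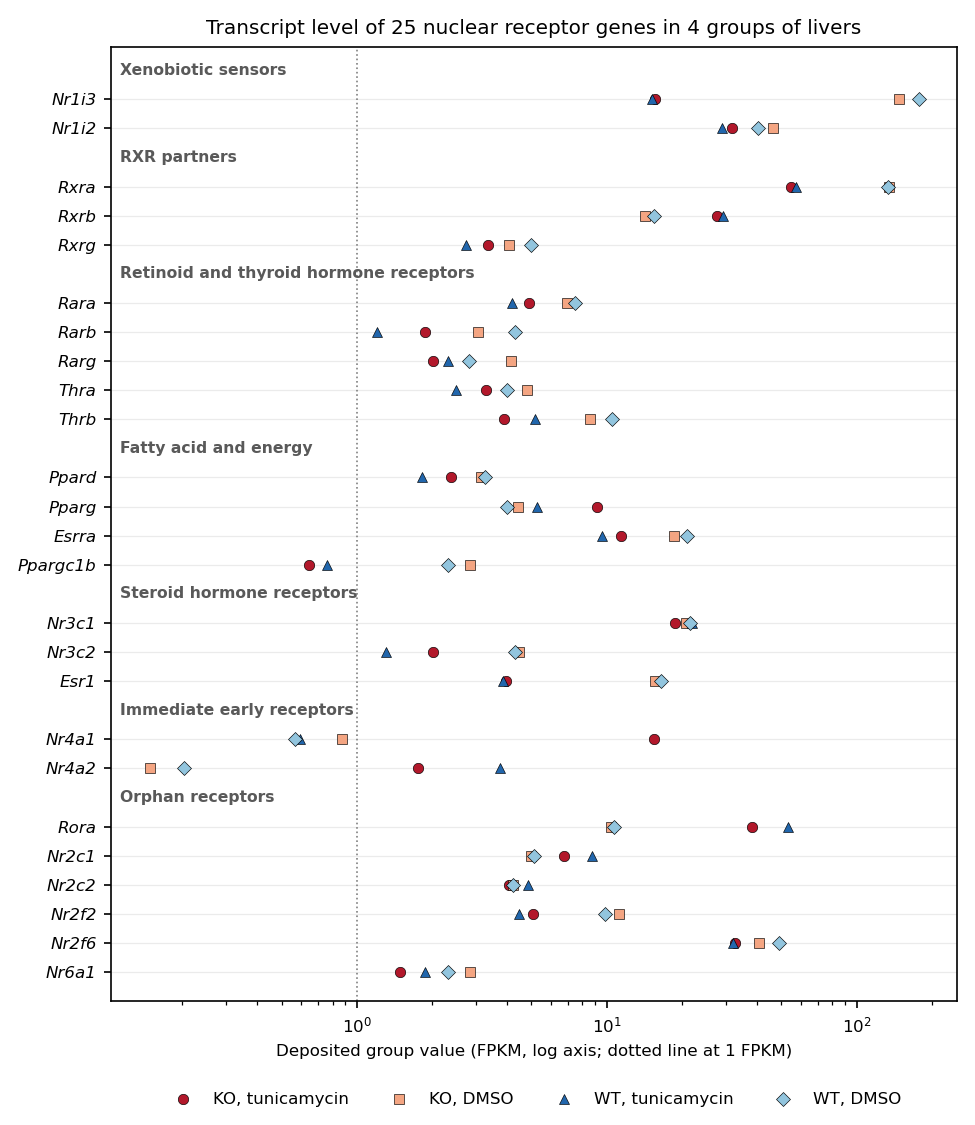
Transcript level of each of the 25 described genes, as the authors' pooled FPKM on a log axis, in the 4 groups, ordered by role of the receptor; the dotted line marks 1 FPKM. The red and dark blue tunicamycin symbols lie left of the pale DMSO symbols for most genes, right of them for Rxrb, Rora, Nr4a2, Nr2c1 and Pparg, and Nr4a1 is at 15.4 FPKM in knockout livers with tunicamycin and under 1 FPKM in the other groups.

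The summed FPKM of the 29 listed genes was 304 in knockout livers with tunicamycin, 520.1 in knockout livers with DMSO, 303.0 in wild-type livers with tunicamycin and 556 in wild-type livers with DMSO. Rxra, Rora and Nr2f6 were the 3 most abundant members in knockout and in wild-type livers with tunicamycin. With DMSO, Nr1i3 and Rxra led in both genotypes.

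Nr1i3, which encodes CAR (chromosome 1, 173144082 to 173153526, mm9), fell furthest of the 25. Its level was 15.7 FPKM in knockout livers with tunicamycin, 148 FPKM in knockout livers with DMSO, 15.2 FPKM in wild-type livers with tunicamycin and 177 FPKM in wild-type livers with DMSO. Both tunicamycin groups lay far below both DMSO groups, and the genotypes lay close together under each agent. Knockout livers had 9.41-fold less with tunicamycin (log2 fold change -3.23, q = 0.000396) in the authors' deposited table. Wild-type livers had 11.6-fold less (log2 fold change -3.54, q = 0.000396) in the authors' deposited table. That q is the smallest the table holds. Only 121 of 13190 tested loci with 1 FPKM or more in either group (0.917%) had a lower log2 fold change in knockout livers, and 118 of 12873 (0.917%) in wild-type livers. The assembly put Tomm40l, a gene of a mitochondrial import protein, at the same mapped interval, and it read 3.17, 53.7, 2.87 and 57.0 FPKM in the same order of groups. No source used here says whether the counting used strand, so reads of the pair cannot be told apart.

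PXR, encoded by Nr1i2 (chromosome 16, 38247496 to 38294947, mm9), moved much less. It had 31.7 FPKM in knockout livers with tunicamycin, 46.3 FPKM in knockout livers with DMSO, 29.0 FPKM in wild-type livers with tunicamycin and 40.3 FPKM in wild-type livers with DMSO. It fell in knockout livers (log2 fold change -0.54, q = 0.0295), while in wild-type livers the log2 fold change of -0.47 did not pass (q = 0.0659), both in the authors' deposited table. The ratio of the level of Nr1i3 to that of Nr1i2 was 0.494 in knockout livers with tunicamycin, against 3.19 with DMSO, and 0.523 in wild-type livers with tunicamycin, against 4.40 with DMSO. The more abundant of these sensors was therefore Nr1i2 in both tunicamycin groups and Nr1i3 in both DMSO groups.

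The RXR genes changed in composition. Rxra, the main hepatic RXR (chromosome 2, 27473694 to 27618877, mm9), read 54.5 FPKM in knockout livers with tunicamycin, 135 FPKM in knockout livers with DMSO, 57.1 FPKM in wild-type livers with tunicamycin and 134 FPKM in wild-type livers with DMSO. It fell in both genotypes, with log2 fold changes of -1.31 in knockout and -1.23 in wild-type livers (q = 0.000396 each) in the authors' deposited table. Rxrb (chromosome 17, 34168756 to 34175348, mm9) went the other way, with 27.6 FPKM in knockout livers with tunicamycin, 14.2 FPKM in knockout livers with DMSO, 29.1 FPKM in wild-type livers with tunicamycin and 15.5 FPKM in wild-type livers with DMSO. Its log2 fold changes were 0.96 in knockout and 0.91 in wild-type livers (q = 0.000396 each) in the authors' deposited table. Rxrg, the least abundant, read 3.35, 4.05, 2.73 and 4.97 FPKM in the same order of groups and was not called in either genotype. In wild-type livers it missed the threshold narrowly (log2 fold change -0.87, q = 0.0534, authors' deposited table).

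Summed over the 3 RXR genes, the level was 85.4 FPKM in knockout livers with tunicamycin, 153.0 FPKM in knockout livers with DMSO, 88.9 FPKM in wild-type livers with tunicamycin and 154.6 FPKM in wild-type livers with DMSO. Rxrb made up 32.3% of that sum in knockout livers with tunicamycin, against 9.29% with DMSO. In wild-type livers it made up 32.7% with tunicamycin, against 10.01% with DMSO. Less RXR transcript in all, and a larger share of it from Rxrb, thus stood in both tunicamycin groups.

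**Figure D2:**
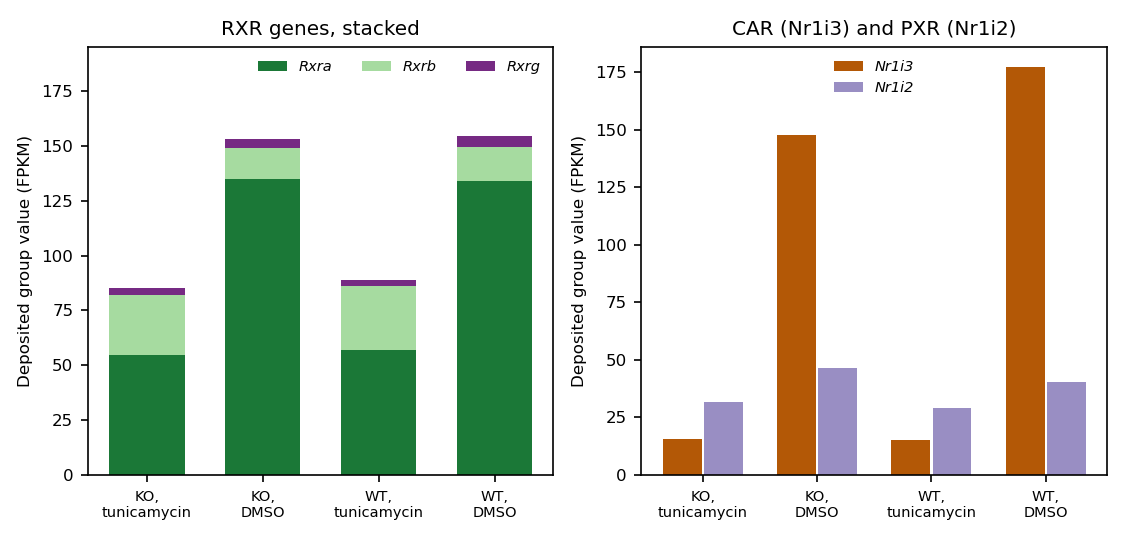
Left, stacked levels of Rxra, Rxrb and Rxrg in the 4 groups; right, levels of Nr1i3 (CAR) and Nr1i2 (PXR); all bars are the authors' pooled FPKM on a linear axis from 0, without error bars because the table gives none. The RXR stack is about as high in knockout livers with tunicamycin (85.4 FPKM) as in wild-type livers with tunicamycin (88.9 FPKM), and Nr1i3 is below Nr1i2 in both tunicamycin groups only.

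Retinoic acid receptors and thyroid hormone receptors, which pair with RXR, had lower levels in both tunicamycin groups. The summed level of Rara, Rarb and Rarg was 8.78 FPKM in knockout livers with tunicamycin, 14.1 FPKM in knockout livers with DMSO, 7.71 FPKM in wild-type livers with tunicamycin and 14.6 FPKM in wild-type livers with DMSO. The genes called differed between genotypes. Rarb, itself a classical retinoic acid target, read 1.88, 3.05, 1.21 and 4.31 FPKM in the same order. It fell in wild-type livers (log2 fold change -1.83, q = 0.000396) and was not called in knockout livers (log2 fold change -0.70, q = 0.0871), in the authors' deposited table. Its responses differed by 1.13 ± 0.45 (knockout minus wild type, log2 scale, approximate SE), which passed 0.05 before Benjamini-Hochberg adjustment over all loci and not after it. A further Rarb locus at the same mapped interval had 0.0382 FPKM in knockout livers with tunicamycin, 1.20 FPKM in knockout livers with DMSO, 0.0888 FPKM in wild-type livers with tunicamycin and 0.816 FPKM in wild-type livers with DMSO. Rara, the widely expressed form, had 4.89, 6.95, 4.18 and 7.48 FPKM in the same order, and fell in wild-type livers (log2 fold change -0.84, q = 0.00315) with -0.51 in knockout livers (q = 0.0960, not called), per the authors' deposited table. Rarg showed the other pattern of calls, with 2.01, 4.14, 2.32 and 2.81 FPKM. It fell in knockout livers (log2 fold change -1.04, q = 0.00342) and had -0.28 in wild-type livers (q = 0.569, not called) in the authors' deposited table. The difference for Rarg was -0.77 ± 0.40 (95% interval -1.55 to 0.02), and a genotype difference was not shown for any of the 3 after adjustment.

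Thrb, the main thyroid hormone receptor of hepatocytes (chromosome 14, 18491726 to 18872718, mm9), fell in both genotypes. It read 3.87 FPKM in knockout livers with tunicamycin, 8.59 FPKM in knockout livers with DMSO, 5.15 FPKM in wild-type livers with tunicamycin and 10.5 FPKM in wild-type livers with DMSO. The log2 fold changes were -1.15 in knockout and -1.02 in wild-type livers (q = 0.000396 each) in the authors' deposited table. Thra read 3.30, 4.80, 2.49 and 4.01 FPKM in the same order and was not called in either genotype. It lies at the same mapped interval as Nr1d1, the gene of the clock repressor REV-ERB alpha, which had 22.1 to 29.2 FPKM in the 4 groups, and whose transcript overlaps Thra on the opposite strand. The approximate SE of the Thra response difference, 1.12, was the widest of the 25.

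Steroid receptors had different patterns. Nr3c1, which encodes the glucocorticoid receptor, had 18.8 FPKM in knockout livers with tunicamycin, 20.7 FPKM in knockout livers with DMSO, 21.9 FPKM in wild-type livers with tunicamycin and 21.6 FPKM in wild-type livers with DMSO. These are nearly level, and no comparison called it. The related mineralocorticoid receptor Nr3c2 fell in both genotypes, with 2.02, 4.44, 1.31 and 4.30 FPKM in the same order. Its log2 fold change was -1.13 in knockout livers (q = 0.000747) and -1.71 in wild-type livers (q = 0.000396) in the authors' deposited table. Esr1, the gene of estrogen receptor alpha (chromosome 10, 5340924 to 5734910, mm9), fell more deeply. It had 3.94 FPKM in knockout livers with tunicamycin, 15.6 FPKM in knockout livers with DMSO, 3.85 FPKM in wild-type livers with tunicamycin and 16.4 FPKM in wild-type livers with DMSO. That is 3.97-fold lower with tunicamycin in knockout livers and 4.27-fold lower in wild-type livers (q = 0.000396 each, authors' deposited table), and the genotypes lay close together under each agent.

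Among the receptors of fatty acid and energy metabolism, Ppargc1b fell in both genotypes. It had 0.645 FPKM in knockout livers with tunicamycin, 2.84 FPKM in knockout livers with DMSO, 0.763 FPKM in wild-type livers with tunicamycin and 2.31 FPKM in wild-type livers with DMSO. The log2 fold changes were -2.14 in knockout and -1.60 in wild-type livers (q = 0.000396 each) in the authors' deposited table. Esrra encodes estrogen-related receptor alpha, a partner of the PGC-1 coactivators at genes of mitochondrial respiration. It read 11.5, 18.6, 9.58 and 20.9 FPKM in the same order. Wild-type livers showed a fall (log2 fold change -1.13, q = 0.000396), and knockout livers a value of -0.70 that narrowly missed the threshold (q = 0.0522), in the authors' deposited table. A weaker Esrra locus shares its mapped interval, with 0.935, 2.66, 0.590 and 1.74 FPKM in the same order. Trmt112, the gene of a methyltransferase subunit, shares the interval too. Its level was 13.5 FPKM in knockout livers with tunicamycin, 10.6 FPKM in knockout livers with DMSO, 12.9 FPKM in wild-type livers with tunicamycin and 11.2 FPKM in wild-type livers with DMSO. Ppard, a PPAR found in most tissues, had 2.38, 3.15, 1.82 and 3.27 FPKM. It fell in wild-type livers (log2 fold change -0.84, q = 0.0160) and had -0.40 in knockout livers (q = 0.309, not called), per the authors' deposited table.

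Pparg, the PPAR that drives fat cell formation (chromosome 6, 115311009 to 115440419, mm9), was called with tunicamycin in knockout livers and not in wild-type livers. It had 9.18 FPKM in knockout livers with tunicamycin, 4.43 FPKM in knockout livers with DMSO, 5.24 FPKM in wild-type livers with tunicamycin and 3.98 FPKM in wild-type livers with DMSO. The log2 fold change with tunicamycin was 1.05 in knockout livers (q = 0.000747) and 0.40 in wild-type livers (q = 0.338, not called), in the authors' deposited table. The responses differed by 0.65 ± 0.38 (95% interval -0.09 to 1.39), so they were not shown to differ. In the same group the fat marker Adipoq, a hormone of fat cells, had 10.7 FPKM, against 0.448 FPKM in knockout livers with DMSO, 0.0641 FPKM in wild-type livers with tunicamycin and 0.0142 FPKM in wild-type livers with DMSO. The part of fat RNA in the Pparg value was not tested.

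The remaining orphan receptors have no settled hormone. Rora encodes ROR alpha, an activator in the circadian clock and in lipid metabolism (chromosome 9, 68501592 to 69236056, mm9). It had 38.3 FPKM in knockout livers with tunicamycin, 10.4 FPKM in knockout livers with DMSO, 53.2 FPKM in wild-type livers with tunicamycin and 10.7 FPKM in wild-type livers with DMSO. Both tunicamycin groups lay far above both DMSO groups. The rise was 3.68-fold in knockout livers and 4.96-fold in wild-type livers (q = 0.000396 each, authors' deposited table). Rora was the second most abundant member in both tunicamycin groups, against the 10th in knockout and the 9th in wild-type livers with DMSO. Nr2f2, which encodes COUP-TFII (chromosome 7, 77496835 to 77556032, mm9), fell in both genotypes. It had 5.07 FPKM in knockout livers with tunicamycin, 11.2 FPKM in knockout livers with DMSO, 4.45 FPKM in wild-type livers with tunicamycin and 9.81 FPKM in wild-type livers with DMSO. The log2 fold change was -1.14 in each genotype (q = 0.000396 each, authors' deposited table). Its relative Nr2f6 read 32.7, 40.7, 32.0 and 48.9 FPKM in the same order. It fell in wild-type livers (log2 fold change -0.61, q = 0.0398) and was not called in knockout livers (-0.32, q = 0.365), in the authors' deposited table.

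The testicular receptors Nr2c1 and Nr2c2 and the germ cell nuclear factor Nr6a1 stayed under 10 FPKM. Nr2c1 had 6.74, 4.97, 8.73 and 5.12 FPKM in the same order and rose in wild-type livers (log2 fold change 0.77, q = 0.0136), with 0.44 in knockout livers (q = 0.230, not called), per the authors' deposited table. Nr2c2 had 4.08, 4.23, 4.85 and 4.23 FPKM and was not called. Nr6a1 had 1.49, 2.84, 1.88 and 2.31 FPKM, and fell in knockout livers (log2 fold change -0.93, q = 0.00171), with -0.30 in wild-type livers (q = 0.440, not called), in the authors' deposited table. For these genes too, a call in a single genotype does not show that the genotypes differ.

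**Figure D3:**
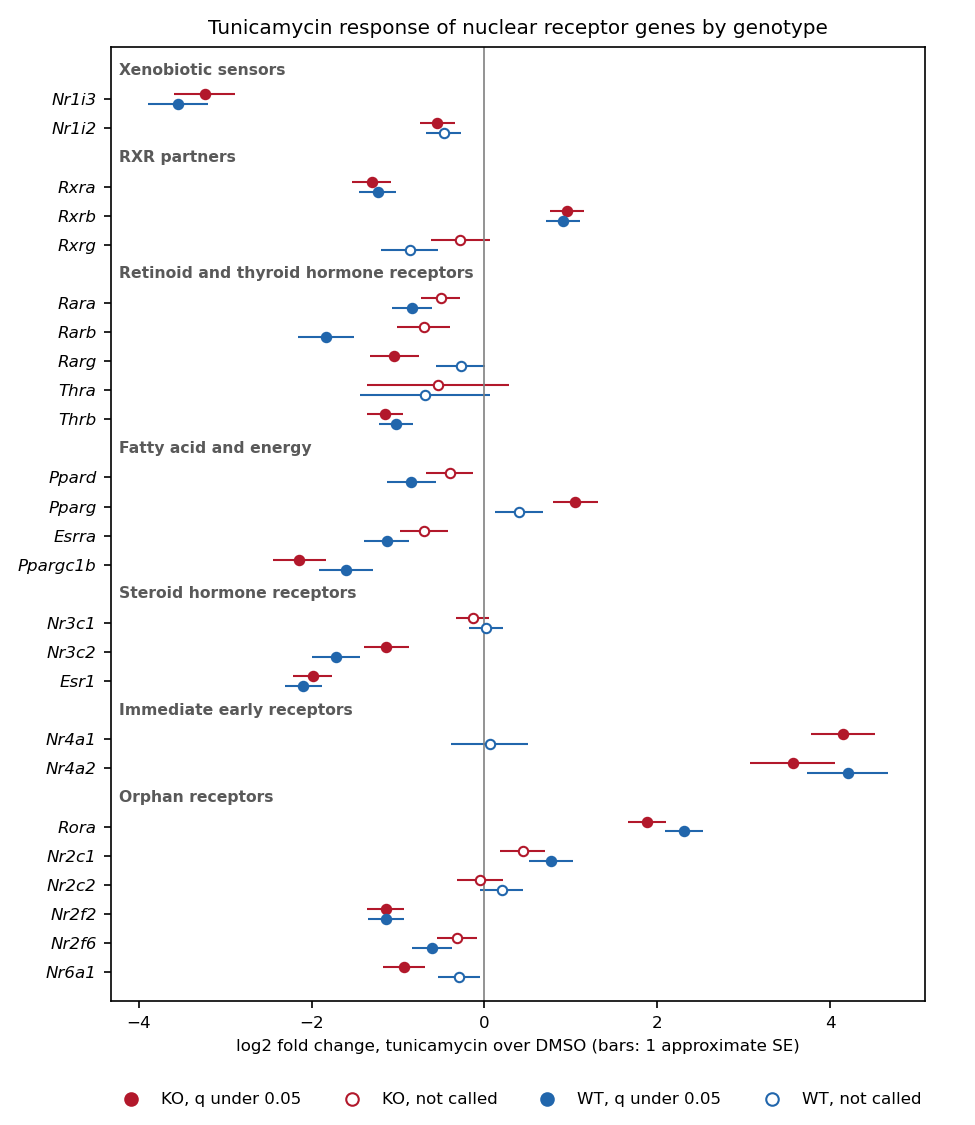
Deposited log2 fold change of tunicamycin over DMSO for each of the 25 genes in knockout (red) and wild-type livers (blue), with bars of 1 approximate SE derived from the deposited test statistics; filled points have a deposited q under 0.05. The red and blue points of a gene overlap within their bars or lie near each other for most genes, and the widest gap is at Nr4a1, with 4.15 in knockout and 0.06 in wild-type livers.

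The NR4A genes encode NUR77 (Nr4a1), NURR1 (Nr4a2) and NOR1 (Nr4a3), which many cells switch on within minutes to hours of a stimulus. CREB and other factors of the basic leucine zipper family, to which ATF4 belongs, are known regulators of such genes through the cyclic AMP response element and its short core TGACG. The promoters of the 3 genes are shown because they held more copies of this core than those of any other member. Each line gives the 250 bases before the transcription start on the gene's own strand, 5′ to 3′, from RefSeq on build GRCm38.p6, which is not the build of the deposited loci. Capitals mark TGACG on either strand, where CGTCA is the same core read on the other strand. The windows are chr15:101266596-101266845 on the plus strand for Nr4a1, chr2:57124004-57124253 on the minus strand for Nr4a2 and chr4:48045055-48045304 on the plus strand for Nr4a3.
Nr4a1: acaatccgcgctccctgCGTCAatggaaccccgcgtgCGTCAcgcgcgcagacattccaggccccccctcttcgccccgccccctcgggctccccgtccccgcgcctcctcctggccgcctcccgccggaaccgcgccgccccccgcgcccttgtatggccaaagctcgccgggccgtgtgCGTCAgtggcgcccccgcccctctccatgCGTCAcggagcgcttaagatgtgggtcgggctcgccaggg
Nr4a2: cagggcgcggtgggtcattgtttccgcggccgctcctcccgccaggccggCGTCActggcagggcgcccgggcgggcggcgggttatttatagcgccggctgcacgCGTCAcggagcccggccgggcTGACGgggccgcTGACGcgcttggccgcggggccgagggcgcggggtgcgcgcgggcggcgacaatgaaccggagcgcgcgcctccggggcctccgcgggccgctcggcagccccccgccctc
Nr4a3: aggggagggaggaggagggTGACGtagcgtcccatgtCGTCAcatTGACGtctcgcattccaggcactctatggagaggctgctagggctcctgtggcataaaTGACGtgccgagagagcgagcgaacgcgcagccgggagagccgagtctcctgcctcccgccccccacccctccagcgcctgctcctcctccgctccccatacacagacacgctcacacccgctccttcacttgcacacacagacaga

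Each of these 3 windows held 4 copies of the core. At least 4 were found in 45 of 32851 promoters of the same length (0.137%), from 44 of 27025 genes. That cutoff equals the count in the 3 windows, which were picked for it, so the share is a description and no test. At least 1 copy of the core was found in 5836 promoters (17.8%), and in 9 of the 38 promoters of 25 members with an entry. The other members with it were Nr2c1, Nr2c2, Nr6a1, Rara, Rxrb and Thrb. None of the 38 held the whole element TGACGTCA, which was in 1.55% of all promoters, or TGACGTGG, the core of an ER stress element, which was in 0.563%. The element TGATGNAA, where a C/EBP and an ATF protein can pair, was in the windows of Esrra and Nr6a1 and in 3.45% of all promoters. AAAGGTCA, the element that NR4A proteins bind, was in those of Rxra and Rxrg and in 1.34% of all promoters. All motifs were searched on both strands. A match is a description of letters and not of binding, and the entries TGACG and TGACGTCA or TGACGTGG overlap by construction.

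The NR4A genes share this promoter feature and had different patterns across the groups. Nr4a1 (chromosome 15, 101083483 to 101105225, mm9) had 15.4 FPKM in knockout livers with tunicamycin, 0.871 FPKM in knockout livers with DMSO, 0.592 FPKM in wild-type livers with tunicamycin and 0.567 FPKM in wild-type livers with DMSO. It passed 1 FPKM in the knockout tunicamycin group alone. With tunicamycin it rose 17.7-fold in knockout livers (log2 fold change 4.15, q = 0.000396) and had a log2 fold change of 0.06 in wild-type livers (q = 0.953, not called), in the authors' deposited table. Nr4a2 (chromosome 2, 56959257 to 56976414, mm9) had 1.75 FPKM in knockout livers with tunicamycin, 0.148 FPKM in knockout livers with DMSO, 3.74 FPKM in wild-type livers with tunicamycin and 0.204 FPKM in wild-type livers with DMSO. It rose in both genotypes, 11.8-fold in knockout and 18.4-fold in wild-type livers (q = 0.000396 each, authors' deposited table). These folds rest on DMSO levels under 1 FPKM. Nr4a3 stayed below the level set for description, with 0.783 FPKM in knockout livers with tunicamycin, 0.0506 FPKM in knockout livers with DMSO, 0.0706 FPKM in wild-type livers with tunicamycin and 0.0519 FPKM in wild-type livers with DMSO. With tunicamycin over DMSO it was not called in knockout livers (log2 fold change 3.95, q = 0.364, authors' deposited table) and had no test in wild-type livers.

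**Figure D4:**
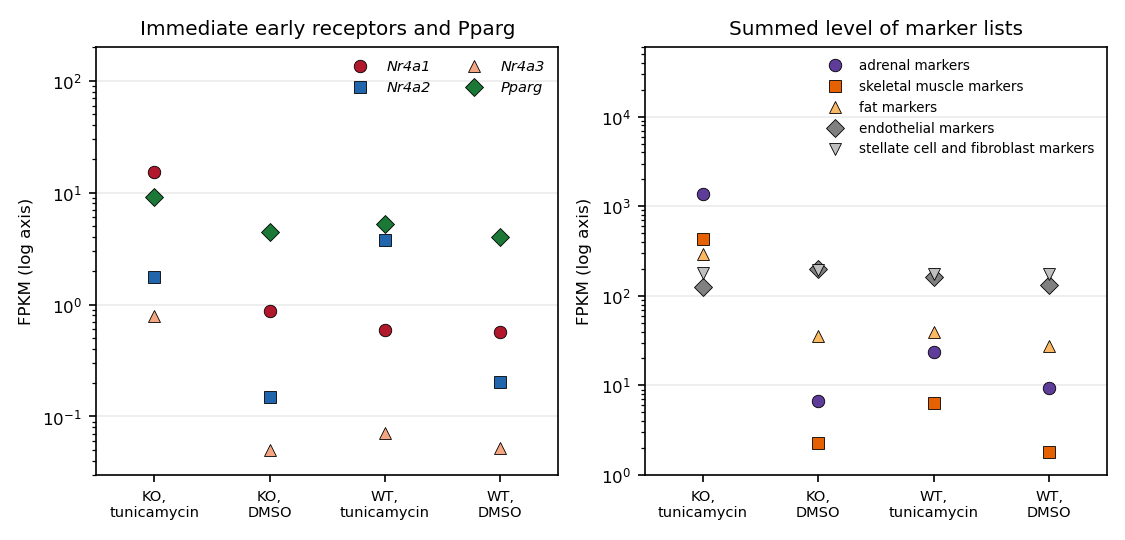
Left, authors' pooled FPKM of the NR4A genes and Pparg in the 4 groups on a log axis; right, the summed FPKM of 5 marker lists in the same groups on a log axis. Nr4a1, Nr4a3 and Pparg are highest in knockout livers with tunicamycin, where the adrenal (1368 FPKM), skeletal muscle (428 FPKM) and fat (293 FPKM) sums are also highest, while Nr4a2 is highest in wild-type livers with tunicamycin.

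Whether tunicamycin acted differently by genotype was tested at each locus that had a test in both genotypes, from the deposited fold changes and statistics. Nr4a1 was the 1 gene of the 25 that passed after Benjamini-Hochberg adjustment over all loci. Its difference was 4.09 ± 0.58 on the log2 scale (knockout minus wild type, approximate SE; 95% interval 2.95 to 5.22). Over the 14510 loci tested, 1.01% passed. Nr4a1 is among the 25 only through its level in the knockout tunicamycin group, and all loci had no such floor. Its count is therefore not compared with that share. At an unadjusted p under 0.05, Nr4a1 and Rarb of the 25 passed, and 763 of all loci. The adrenal, muscle and fat markers were highest in the same group as Nr4a1, and Nr5a1, the receptor that defines steroid-making cells, read 16.7 FPKM there, against 0.0102 FPKM in knockout livers with DMSO, 0.00512 FPKM in wild-type livers with tunicamycin and 0.01997 FPKM in wild-type livers with DMSO. Tyrosine hydroxylase (Th), which marks the adrenal medulla, had 13.9 FPKM in that group, 0.0192 FPKM in wild-type livers with tunicamycin, and is listed at 0 in both DMSO groups. With tunicamycin over DMSO in knockout livers, 4 of the 12 adrenal markers were called higher and 8 were not called. Nr5a1 was not called there (log2 fold change 10.7, q = 0.329), and Th was (q = 0.000396), in the authors' deposited table. The part of adrenal, muscle and fat RNA in the Nr4a1 value was not tested, and pooling hides whether 1 library carries that RNA. For Nr1i3 the difference was 0.31 ± 0.50 (95% interval -0.67 to 1.28), for Rxra -0.07 ± 0.31 (95% interval -0.68 to 0.53) and for Rora -0.43 ± 0.31 (95% interval -1.04 to 0.17). Differences inside these intervals remain compatible with the values.

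Knockout and wild-type livers were also compared directly under each agent. With DMSO, none of the 24 genes with a test was called by Cuffdiff's q, and 1, Rarg, had an unadjusted p under 0.05 (0.0332; log2 fold change 0.56, q = 0.109, authors' deposited table). Over all 14788 tested loci, 1.39% were called higher in the knockout and 1.47% lower, and 1055 had an unadjusted p under 0.05. Nr4a2 had no test there. The median log2 fold change of the 24 was -0.04, beside -0.08 over all tested loci with 1 FPKM or more. With tunicamycin, 2 of the 25 were higher and 1 lower in the knockout. Over all 14919 tested loci, 3.73% were called higher and 2.19% lower. These shares carry no floor on FPKM, whereas Nr4a1 and Nr4a2 are among the 25 only through their tunicamycin levels. The counts and shares are therefore not compared. The higher genes were Nr4a1 (26.1-fold, log2 fold change 4.71, q = 0.000396) and Pparg (log2 fold change 0.81, q = 0.00553), both in the authors' deposited table. Nr4a2 was lower, with a log2 fold change of -1.09 (q = 0.00108) in the authors' deposited table. Of the genes under 1 FPKM, Nr4a3 also had a q under the threshold there (log2 fold change 3.47, q = 0.00171, authors' deposited table). At an unadjusted p under 0.05, 5 of the 25 passed, which adds Nr3c2 (log2 fold change 0.63, q = 0.105) and Rora (-0.47, q = 0.0911), in the authors' deposited table. Of all 14919 tested loci, 1551 passed at that p. Endothelial markers differed with genotype also under DMSO, where 8 of 11 were higher in the knockout, with sums of 199 FPKM in the knockout and 132 FPKM in wild type. Their part in the receptor values was not tested.

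The other nuclear receptors of the mouse, 21 genes not in the list, were counted in the same way. For these and the lists below, the shares of all tested loci serve for comparison. With tunicamycin, 18.1% of loci were called higher and 14.8% lower in knockout livers, and 18.1% and 19% in wild-type livers. Cuffdiff's unadjusted p was under 0.05 at 6611 of 15534 loci in knockout and at 7005 of 14998 in wild-type livers. In knockout livers none of the 14 other receptors tested rose and 6 fell, with 7 at an unadjusted p under 0.05. In wild-type livers 1 of 13 rose and 6 fell. Ppara, the receptor that drives hepatic fatty acid oxidation, fell, with log2 fold changes of -2.14 in knockout and -2.07 in wild-type livers (q = 0.000396 each, authors' deposited table). Nr0b2, the gene of the bile acid induced repressor SHP, fell, with log2 fold changes of -2.86 in knockout and -2.07 in wild-type livers (q = 0.000396 each, authors' deposited table). Hnf4a, the receptor that maintains hepatocyte identity, had 121 FPKM in knockout livers with tunicamycin, 199 FPKM in knockout livers with DMSO, 186 FPKM in wild-type livers with tunicamycin and 210 FPKM in wild-type livers with DMSO. It fell with tunicamycin in knockout livers (log2 fold change -0.72, q = 0.0112) and was not called in wild-type livers (-0.17, q = 0.695), in the authors' deposited table. With tunicamycin it was lower in the knockout than in wild type (log2 fold change -0.63, q = 0.0339, authors' deposited table). The responses of Hnf4a differed by -0.55 ± 0.34 (knockout minus wild type, approximate SE) and were not shown to differ after adjustment.

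Coregulators were called in both directions. Ppargc1a of the PGC-1 family and a merged locus that holds Pprc1 of that family were among them. The counts called were near or under the shares of all loci given above. Of 15 coactivators, 2 rose and 1 fell with tunicamycin in knockout livers, and 3 rose and 1 fell in wild-type livers. Ppargc1a, the best known PGC-1 gene, had 0.490 FPKM in knockout livers with tunicamycin, against 4.56 FPKM with DMSO, and 0.307 FPKM in wild-type livers with tunicamycin, against 3.15 FPKM with DMSO. Its log2 fold changes, -3.22 in knockout and -3.36 in wild-type livers (q = 0.000396 each, authors' deposited table), ran in the direction of those of Ppargc1b. Pprc1, the third gene of the family, was merged in the assembly with Nolc1, so the values of these genes cannot be told apart. The merged locus had 40.0 FPKM in knockout livers with tunicamycin, against 16.3 FPKM with DMSO. In wild-type livers it had 42.4 FPKM with tunicamycin, against 12.6 FPKM with DMSO. The locus rose in both genotypes (q = 0.000396 each, authors' deposited table). Prmt1, an arginine methyltransferase, rose too, by log2 fold changes of 1.51 in knockout and 1.19 in wild-type livers (q = 0.000396 each, authors' deposited table). Of 11 corepressors, 2 rose and 1 fell in knockout livers, and 2 rose and 2 fell in wild-type livers. Nrip1, which encodes the corepressor RIP140, rose by 0.79 in knockout livers (q = 0.00423) and by 1.05 in wild-type livers (q = 0.000396) on the log2 scale in the authors' deposited table.

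Known targets of the receptors were counted likewise, from lists of textbook target and handling genes, without a measurement of receptor activity. Of 15 CAR and PXR target enzymes, 1 rose and 6 fell in knockout livers, and 1 rose and 5 fell in wild-type livers. The riser was Cyp2b10, the classical CAR target, which had 177 FPKM in knockout livers with tunicamycin, against 29.7 FPKM with DMSO, and 214 FPKM in wild-type livers with tunicamycin, against 39.6 FPKM with DMSO. It thus rose by 2.57 in knockout and 2.43 in wild-type livers on the log2 scale (q = 0.000396 each, authors' deposited table) in the groups where Nr1i3 was low. Alas1, the first enzyme of heme synthesis, fell, with log2 fold changes of -2.56 in knockout and -2.76 in wild-type livers (q = 0.000396 each, authors' deposited table). Por, the electron donor of cytochromes P450, and Abcc3, an export pump, had log2 fold changes of -1.28 and -1.25 in knockout and of -1.19 and -1.13 in wild-type livers (q = 0.000396 each, authors' deposited table).

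Glucocorticoid receptor targets moved both ways while Nr3c1 was not called. Of 14, 3 rose and 6 fell in knockout livers, and 5 rose and 4 fell in wild-type livers. Sgk1, a kinase, rose by 3.25 in knockout and 2.96 in wild-type livers on the log2 scale, and Pck1, the gluconeogenic enzyme, had log2 fold changes of -3.40 in knockout and -3.63 in wild-type livers (q = 0.000396 each, authors' deposited table). Tsc22d3, the gene of the glucocorticoid-induced protein GILZ, fell, with log2 fold changes of -1.58 in knockout and -1.77 in wild-type livers (q = 0.000396 each, authors' deposited table). Of 10 thyroid hormone targets and handling genes, 4 rose and 4 fell in each genotype. Dio1, the deiodinase that activates thyroid hormone, fell, with log2 fold changes of -1.30 in knockout and -1.77 in wild-type livers (q = 0.000396 each, authors' deposited table). Klf9 and Gpd2 rose, with log2 fold changes of 0.56 and 0.69 in knockout and of 1.22 and 1.07 in wild-type livers, in the authors' deposited table. Of 11 tested retinoid genes, 1 rose and 5 fell in each genotype. Cyp26a1, which degrades retinoic acid and is induced by it, had 3.49 FPKM in knockout livers with tunicamycin, 16.5 FPKM in knockout livers with DMSO, 9.52 FPKM in wild-type livers with tunicamycin and 34.3 FPKM in wild-type livers with DMSO. It fell with tunicamycin in both genotypes (log2 fold change -2.24 in knockout and -1.85 in wild-type livers) and was lower in the knockout under tunicamycin (-1.45) and under DMSO (-1.05), all with q = 0.000396 in the authors' deposited table. Aldh1a1, which makes retinoic acid, fell, with log2 fold changes of -1.37 in knockout and -1.99 in wild-type livers (q = 0.000396 each, authors' deposited table).

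Targets of PPAR delta and gamma rose more often than they fell. In knockout livers 6 of 11 rose and none fell, and in wild-type livers 5 of 9 rose and 1 fell. Over all tested loci, 18.1% were called higher in each genotype, and 14.8% lower in knockout and 19% in wild-type livers. The count at an unadjusted p under 0.05 in knockout livers was 6. Pdk4, a kinase that spares glucose, rose by 2.58 in knockout and 3.06 in wild-type livers on the log2 scale (q = 0.000396 each, authors' deposited table). The lipid droplet gene Cidec had 27.4 FPKM in knockout livers with tunicamycin, 2.29 FPKM in knockout livers with DMSO, 8.31 FPKM in wild-type livers with tunicamycin and 2.05 FPKM in wild-type livers with DMSO. Fabp4, the fatty acid binding protein of fat cells, had 136 FPKM in knockout livers with tunicamycin, 22.4 FPKM in knockout livers with DMSO, 24.1 FPKM in wild-type livers with tunicamycin and 16.6 FPKM in wild-type livers with DMSO. Adipoq, Cidec, Cidea and Fabp4 are on the fat marker list as well, and fat RNA and PPAR gamma targets cannot be told apart in the knockout tunicamycin group.

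Of 14 targets of estrogen-related receptors and PGC-1, 1 rose and 2 fell in knockout livers, and 1 rose and 9 fell in wild-type livers. The counts in knockout livers were near or under the shares of all loci. Esrra, described above as a receptor, is itself on that list and among the 9. At an unadjusted p under 0.05 the counts were 6 in knockout and 10 in wild-type livers, and the median log2 fold change was -0.35 in knockout and -0.60 in wild-type livers. None of the 14 differed between genotypes under tunicamycin by the authors' q, and none at an unadjusted p under 0.05. Over all 14919 loci tested there, 3.73% were called higher and 2.19% lower, and 1551 had such a p. Cs, which encodes citrate synthase, was the riser in both, with log2 fold changes of 0.99 in knockout livers (q = 0.000747) and 1.15 in wild-type livers (q = 0.000396) in the authors' deposited table. Of the genes that handle steroid and vitamin D ligands, 1 of 7 tested rose and 4 fell in knockout livers, and none of 8 rose and 5 fell in wild-type livers, where 7 had an unadjusted p under 0.05. Hsd11b1, which reactivates glucocorticoid in the liver, had 191 FPKM in knockout livers with tunicamycin, 362 FPKM in knockout livers with DMSO, 225 FPKM in wild-type livers with tunicamycin and 534 FPKM in wild-type livers with DMSO. It fell with tunicamycin in both genotypes (q = 0.000396 each, authors' deposited table). Akr1d1, a steroid reductase of bile acid synthesis, had 70.2 FPKM in knockout livers with tunicamycin, 116 FPKM in knockout livers with DMSO, 30.5 FPKM in wild-type livers with tunicamycin and 144 FPKM in wild-type livers with DMSO. Its level was higher in the knockout than in wild type under tunicamycin (log2 fold change 1.20, q = 0.000396, authors' deposited table).

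**Figure D5:**
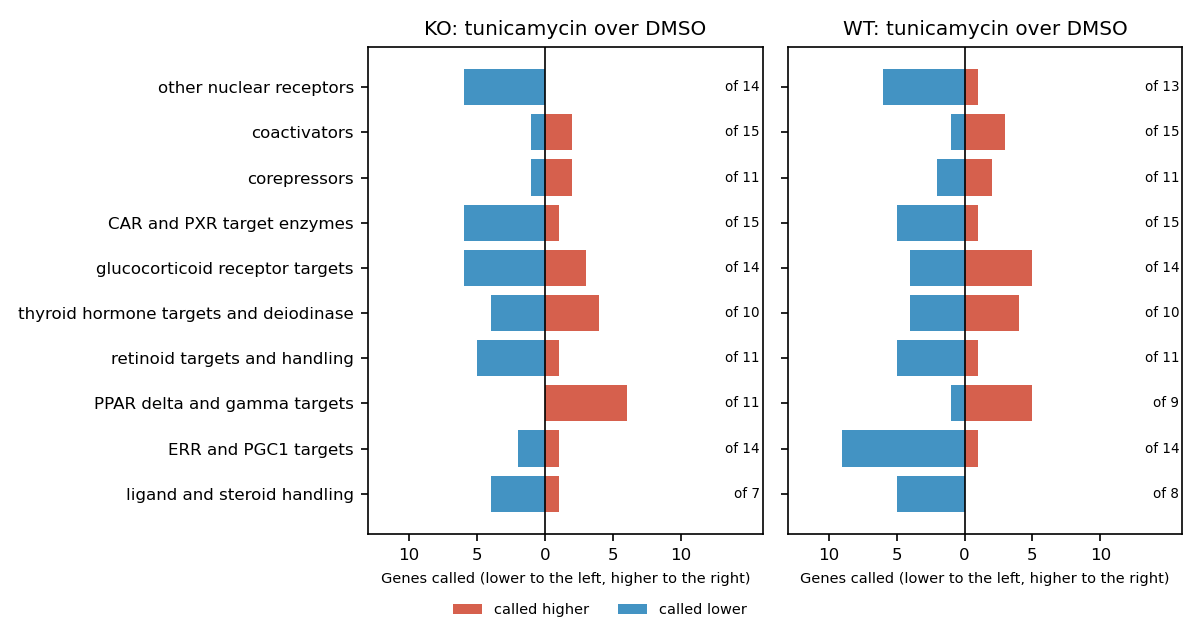
Number of genes called lower (blue, to the left) and higher (red, to the right) with tunicamycin over DMSO by the deposited q, for 10 lists of other receptors, coregulators and receptor targets, in knockout (left panel) and wild-type livers (right panel); the number at the right edge of each row is the number tested. Other nuclear receptors (6 lower in each genotype) and CAR and PXR target enzymes (6 lower in knockout, 5 in wild-type livers) lean to the left, and PPAR delta and gamma targets (6 higher in knockout, 5 in wild-type livers) to the right. Over all tested loci, 18.1% were called higher in each genotype, and 14.8% lower in knockout and 19% in wild-type livers.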

How the data were processed

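Poly(A) RNA of mouse livers was sequenced in 12 libraries, 3 in each of 4 groups. Per the submitters' processing notes, bcl2fastq, TopHat2 2.0.4, Cufflinks, Cuffdiff and the mouse build mm9 were used, and no source used here names the annotation, filters or strand setting. Per the file headers, the authors deposited 1 FPKM per locus and group with the libraries pooled, and for each of 6 comparisons a log2 fold change, Cuffdiff's test score, and p-values with q-values. These q-values cover the 90828 tests of the 6 comparisons at once (Benjamini-Hochberg). The deposited values give no counts, so the depth of each library is unknown and no SD, interval per group or left-out library can be given.

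The members and the gene lists were chosen with earlier results of these data known. A listed symbol was matched to the locus with that symbol alone and the highest mean FPKM. Where no locus held the symbol alone, the merged locus with the highest mean FPKM was taken, as for Pprc1. The list counts therefore include some merged loci. Members with 1 FPKM or more in any group were described, and of each other list up to 4 called genes with the largest log2 fold change and 1 FPKM or more in the higher group could be named per comparison. Th, Nr5a1, Adipoq and Alb were named as defining markers, and Tomm40l, Nr1d1 and Trmt112 for sharing a mapped interval with a member. Tat was named as a hepatocyte marker with positive log2 fold changes. A locus was called at a deposited q under 0.05 with test status OK. In the list counts no floor on FPKM was applied. Bco1, Sts and Adgre1 matched no locus. Some genes of the lists are not reported here by name. No list was given a test of its own.

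The difference of the tunicamycin log2 fold changes (knockout minus wild type) was divided by an SE derived from the deposited fold changes and test scores, scaled to the deposited p-values, with a normal approximation and Benjamini-Hochberg adjustment over 14510 loci; it is approximate, and was tested on simulated data. Lane differs within it, because it uses the knockout DMSO group. Promoters of 250 bases came from RefSeq on GRCm38.p6, with entries for 25 of the 29 members. Alternatives were another adjustment, other thresholds, floors on FPKM, centring and a pseudocount of 1. Software was scipy 1.17.1, pandas 2.3.3, numpy 2.4.6 and matplotlib 3.10.9 under Python 3.11.15.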

Additional observations from a re-analysis of the deposited data

Results flagged for a closer look

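The tunicamycin response of Nr4a1 differed between genotypes by 4.09 on the log2 scale (knockout minus wild type). It stands out because this was the 1 member for which the test of the difference itself passed after adjustment over all loci. The group with the high value, knockout with tunicamycin, is also the one with adrenal, skeletal muscle and fat RNA, and the part of that RNA was not tested.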

How the results depend on the processing

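No called direction of a member reversed under any of the alternatives run. Centring on the median of all loci changed the sign of some values near 0 that were not called, such as Nr2c1, Nr3c1, Ppard and Rora in knockout against wild type with DMSO. Counting calls of at least 2-fold left 2 of the 4 genes higher with tunicamycin in wild type, and 1 of the 2 higher in knockout under tunicamycin. Requiring 5 FPKM left 6 of the 10 genes lower with tunicamycin in knockout, and 0 of the 1 lower in knockout under tunicamycin. At an unadjusted p under 0.05, 1 gene was higher in knockout with DMSO (0 by the deposited q), and 2 were lower in knockout under tunicamycin. The other counts stayed within 1.5 times of those reported. With q computed within a comparison alone, an alternative added for single genes after seeing the data, 3 further values passed: Nr1i2 and Rxrg in wild type and Esrra in knockout, all lower with tunicamycin. That adjustment gave 105 calls over all loci for knockout against wild type with DMSO, where the deposited q gave 423. Summing all loci of a symbol moved the mean FPKM of Rarb to 3.15 and of Esrra to 16.6. No paired analysis was possible because the table pools the 3 libraries of a group, and no library could be left out for the same reason. Unknown depth limits what the low genes show.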
